A study of Mus musculus with 32 samples.

Results

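The genes described here encode the subunits of the 3 nuclear RNA polymerases and of Mediator, the complex that carries signals from transcription factors to RNA polymerase II. They were chosen by symbol: every gene of the deposited table whose symbol starts with Polr1, Polr2 or Polr3, or is Med followed by a number and, in some, a final l. This gave 58 of 13175 genes, of which 5 belong to RNA polymerase I, 13 to RNA polymerase II, 10 to RNA polymerase III and 30 to Mediator. Polr1c and Polr1d are counted under polymerase I by their symbols and also serve polymerase III, and 5 of the genes counted under polymerase II (Polr2e, Polr2f, Polr2h, Polr2k and Polr2l) serve all 3 enzymes. Crcp, a subunit of polymerase III with another kind of symbol, is given with the related factors below, and Cd3eap, Twistnb and Znrd1, subunits of polymerase I, were not analysed here.

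RNA polymerase I makes ribosomal RNA, RNA polymerase II makes messenger RNA, and RNA polymerase III makes transfer RNA, 5S ribosomal RNA and other small RNAs. The core of Mediator has a head, a middle and a tail held together by the scaffold subunit Med14, and a separable kinase module that is built from Med12, Med13, a cyclin and a cyclin-dependent kinase, or from their paralogs. A growing mouse oocyte transcribes actively, falls nearly silent when it reaches full size with its nucleus, the germinal vesicle (GV), still intact, and stays silent through maturation to metaphase of the second meiotic division (MII). In that time its stored messenger RNAs are translated, lengthened or shortened at their poly(A) tails, and in large part degraded.

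The study asked whether freezing immature follicles by vitrification alters the oocytes they later yield. Wild type (WT) mouse preantral follicles, fresh or vitrified, were grown in a 3D culture named eIVFG, and RNA of 32 single oocytes was sequenced, 1 library per oocyte. The 4 groups were GV oocytes of fresh follicles (n = 4) and of vitrified follicles (n = 4), taken on day 8, and MII oocytes of fresh follicles (n = 12) and of vitrified follicles (n = 12), taken on day 9 after human chorionic gonadotropin (hCG), the hormone that triggers ovulation. Stage, culture day and hCG therefore change together and cannot be told apart. Strain, age and the mouse or culture behind each oocyte are not given in the sources used here, so p-values measure the spread between oocytes labelled as biological replicates.

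Values are CPM (counts-per-million), with library totals scaled by edgeR's TMM method, and comparisons are log2 fold changes from edgeR's quasi-likelihood test with Benjamini-Hochberg adjustment over all genes tested, called at an adjusted p under 0.05. CPM is a share of the RNA that was sequenced. With no added standard, a fall in share and a fall in molecules per oocyte cannot be told apart, and since the SMART-Seq v4 kit primes on poly(A) tails, neither can fewer transcripts and shorter tails. Totals ran from 10357543 to 17687247 counts in GV oocytes and from 5300208 to 12206512 in MII oocytes. Counts of 0 in an MII oocyte allow up to 3 counts, a level between 0.274 and 0.668 CPM by library, for counting error only.

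Oocyte markers were high in every library, with summed levels of the 10 genes between 7242 and 15279 CPM. Summed levels of 16 granulosa and cumulus markers had medians of 81.4 to 122 CPM by group. They reached 5084 CPM in MII fresh replicate 11 and 729 CPM in MII vitrified replicate 12. Without these 2 oocytes and replicate 1 of each MII group, the counts of members called below were 10 higher and 26 lower in fresh oocytes and 12 higher and 29 lower in vitrified oocytes. Replicate 1 was at 159 CPM (fresh) and 150.5 CPM (vitrified), whereas MII vitrified replicate 7, at 208 CPM, was kept in that fit. The 4 theca markers had medians of at most 2.27 CPM by group and reached 63.4 CPM in MII vitrified replicate 12. The 2 markers of vessel and blood cells, Pecam1 and Cd68, differed with stage: their sum was at most 22.2 CPM in GV oocytes and at least 32.3 CPM in every MII oocyte, with medians of 15.4 and 16.1 CPM against 64.5 and 70.3 CPM, mostly from Pecam1. The part of these transcripts in the stage differences was not tested. GV libraries carry numbers from 81 to 85 and MII libraries numbers from 2 to 25, and the deposited values are whole in GV oocytes and partly fractional in MII oocytes, so stage and quantification cannot be told apart. Among the GV oocytes, fresh replicate 3 and vitrified replicate 1 stood apart, with the lowest totals and with TMM factors of 1.05 and 1.00 against 1.281 to 1.4006 in the other 6. These oocytes also had the highest summed levels of the maturation markers Ccnb1 and Btg4 in their groups. The sums were 7155 CPM in fresh replicate 3 (group median 2924) and 5410 CPM in vitrified replicate 1 (group median 4120). Without both of these oocytes, the counts of members called below were 12 higher and 26 lower for fresh oocytes and 13 higher and 26 lower for vitrified oocytes.

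In oocytes of fresh follicles, 10 of the 58 members rose from GV to MII, 25 fell and 23 were not called. Over all 11470 genes tested in this comparison, 52.6% were called, 22.8% higher and 29.8% lower. None of the 5 members of polymerase I rose and 3 fell, 1 of the 13 of polymerase II rose and 8 fell, and none of the 10 of polymerase III rose and 5 fell. Mediator divided evenly, with 9 of 30 higher and 9 lower. The median log2 fold change was -1.53 for polymerase I, -1.57 for polymerase II, -1.81 for polymerase III and -0.049 for Mediator, beside -0.23 over all genes. Relative to that median of all genes the members' medians were -1.31, -1.34, -1.59 and 0.18 in the same order. With DESeq2 size factors in place of TMM the median over all genes was -0.37. The Mediator median ran from -0.21 to 0.25 over the alternatives tried, so no direction is given for it.

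In oocytes of vitrified follicles, where 57% of all genes were called, 23.3% higher and 33.7% lower, 12 members rose, 28 fell and 18 were not called. All 10 that rose and all 25 that fell in fresh oocytes were called in the same direction there. The GV and MII groups of the vitrified comparison share no oocyte with those of the fresh comparison, though both were taken from 1 fit. MII oocytes with library numbers under 20 alone (7 fresh, 7 vitrified) gave 12 higher and 25 lower members in fresh oocytes and 12 and 30 in vitrified oocytes, and those of 20 and over (5 and 5) gave 8 and 24, and 10 and 25.

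RNA polymerase II showed a wide spread between its subunits, from the largest fall among all 58 members to a rise. The 2 genes of its catalytic core were not called in fresh oocytes. Polr2a, the largest subunit, whose carboxy-terminal repeats are phosphorylated during transcription, was at 11.6, 16.6, 2.67 and 25.6 CPM in replicates 1 to 4 of the fresh GV group and ran from 5.70 to 16.5 with a median of 9.02 in fresh MII oocytes, a log2 fold change of -0.56 ± 0.39 SE with an edgeR adjusted p of 0.24. These ranges overlapped, and in vitrified oocytes the log2 fold change was 0.082 ± 0.41 SE (edgeR adjusted p = 0.878). Polr2b, the second largest subunit, was at 69.2, 76.1, 67.8 and 36.4 CPM in fresh GV oocytes and ran from 33.3 to 108 with a median of 58.1 in fresh MII oocytes (0.033 ± 0.32 SE, edgeR adjusted p = 0.942). In vitrified oocytes Polr2b was called lower, with the value given below beside the interaction. Per kilobase of exons merged over all annotated transcripts, Polr2a was the least abundant polymerase II transcript in fresh GV oocytes, at 2.00 CPM per kb. Polr2j was the most abundant there, at 931 CPM per kb.

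The small subunits fell most. Polr2k, a zinc-binding subunit shared by all 3 polymerases, lies at chr15:36174010-36177010 on the plus strand of GRCm38. It was at 291, 52.8, 388 and 37.0 CPM in fresh GV oocytes and 226, 57.7, 45.9 and 45.4 CPM in vitrified GV oocytes. Replicates 1 and 3 of the fresh group and replicate 1 of the vitrified group were well above the others, yet all 8 GV oocytes were above every MII oocyte, which ran from 0 to 3.27 with a median of 0.674 CPM in the fresh group, with 2 oocytes at 0, and from 0 to 0.784 with a median of 0.238 CPM in the vitrified group, also with 2 at 0. Its transcripts fell by 7.61 on the log2 scale in fresh oocytes (SE 0.64, edgeR adjusted p = 3.97e-12) and fell by 8.09 in vitrified oocytes (SE 0.69, edgeR adjusted p = 3.77e-12). The size of the fall of Polr2k moved with the libraries used: in fresh oocytes it was -6.96 with MII library numbers under 20, -9.96 with those of 20 and over and -6.99 without GV fresh replicate 3, and in vitrified oocytes -8.97 with numbers of 20 and over and -7.15 without GV vitrified replicate 1, called each time. The fresh MII group holds 96 counts of Polr2k in all and the vitrified group 25.

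Polr2i, the zinc-binding subunit at the jaw of the enzyme that bears on accuracy and start site choice, was at 374, 399.6, 484 and 388 CPM in fresh GV oocytes and 229, 263, 506 and 254 CPM in vitrified ones. MII oocytes ran from 0.937 to 8.45 with a median of 4.36 CPM (fresh) and from 1.05 to 5.63 with a median of 2.59 CPM (vitrified), and no MII value came near a GV value. The log2 fold changes were -6.50 ± 0.34 SE and -6.66 ± 0.35 SE, with edgeR adjusted p of 4.12e-17 and 2.37e-17. Polr2i (chr7:30231948-30233390, plus strand) shares exon bases with Tbcb on the opposite strand, and reads from the 2 genes cannot be told apart without strand.

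Polr2l, another small subunit shared by the 3 enzymes (chr7:141471860-141475132, minus strand), was at 661, 666, 654 and 471 CPM in fresh GV oocytes and 220.4, 325, 564 and 389 CPM in vitrified ones. It ran from 1.21 to 37.5 with a median of 8.93 CPM in fresh MII oocytes and from 1.75 to 6.58 with a median of 2.59 CPM in vitrified MII oocytes, again with no overlap between the stages. Log2 fold changes were -5.63 ± 0.46 SE and -6.69 ± 0.48 SE (edgeR adjusted p = 1.82e-12 and 6.91e-14). Deposited values of Polr2i and Polr2l were off whole numbers by over 0.01 in 23 and 19 of the 24 MII oocytes, which also holds for Polr2c, Med10, Med15, Med20 and Med27 in 16 to 23 oocytes each.

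The other shared subunits fell less or were not called. Polr2e went from 133, 121, 159 and 225 CPM in fresh GV oocytes to a range from 7.35 to 70.3 with a median of 13.8 in fresh MII oocytes (-2.93 ± 0.37 SE, edgeR adjusted p = 2.99e-08). Polr2f fell by 1.57 on the log2 scale in fresh oocytes (SE 0.28, edgeR adjusted p = 1.48e-05) and by 0.99 in vitrified oocytes (SE 0.29, edgeR adjusted p = 0.00352). Polr2h was the shared subunit without a call, at 18.9, 17.6, 18.7 and 25.1 CPM in fresh GV oocytes and from 5.89 to 30.7 with a median of 12.4 in fresh MII oocytes (-0.46 ± 0.37 SE, edgeR adjusted p = 0.308).

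The stalk and the assembly pair went different ways. Polr2d and Polr2g, which form the stalk over the RNA exit channel, were among the most abundant members in GV oocytes and fell by 1.401 and 1.879 on the log2 scale in fresh oocytes (edgeR adjusted p = 0.000176 and 4.57e-06). Polr2c and Polr2j bind each other early in assembly of the enzyme. Polr2j was at 923, 767, 1547 and 880.5 CPM in fresh GV oocytes and ran from 17.4 to 452 with a median of 149 in fresh MII oocytes, and its log2 fold change was -2.45 ± 0.46 SE (edgeR adjusted p = 2.81e-05). Polr2c did the opposite and was the only polymerase subunit of the 28 that rose, in both treatments. It was at 329.6, 465, 552 and 418 CPM in fresh GV oocytes and 483, 566, 482 and 579.9 CPM in vitrified ones, and ran from 946 to 1834 with a median of 1132 CPM in fresh MII oocytes and from 1078 to 2132 with a median of 1394 CPM in vitrified ones. Every MII oocyte was above every GV oocyte, with log2 fold changes of 1.48 ± 0.19 SE and 1.46 ± 0.19 SE (edgeR adjusted p = 6e-08 and 6.26e-08). Polr2c (chr8:94857450-94873535, plus strand) shares exon bases with Dok4, and Polr2j (chr5:136116631-136122947, plus strand) with Lrwd1, both on the opposite strand. Polr2m, a regulator that binds the enzyme and is no core subunit, was not called (-0.059 ± 0.56 SE, edgeR adjusted p = 0.94).

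**Figure D1:**
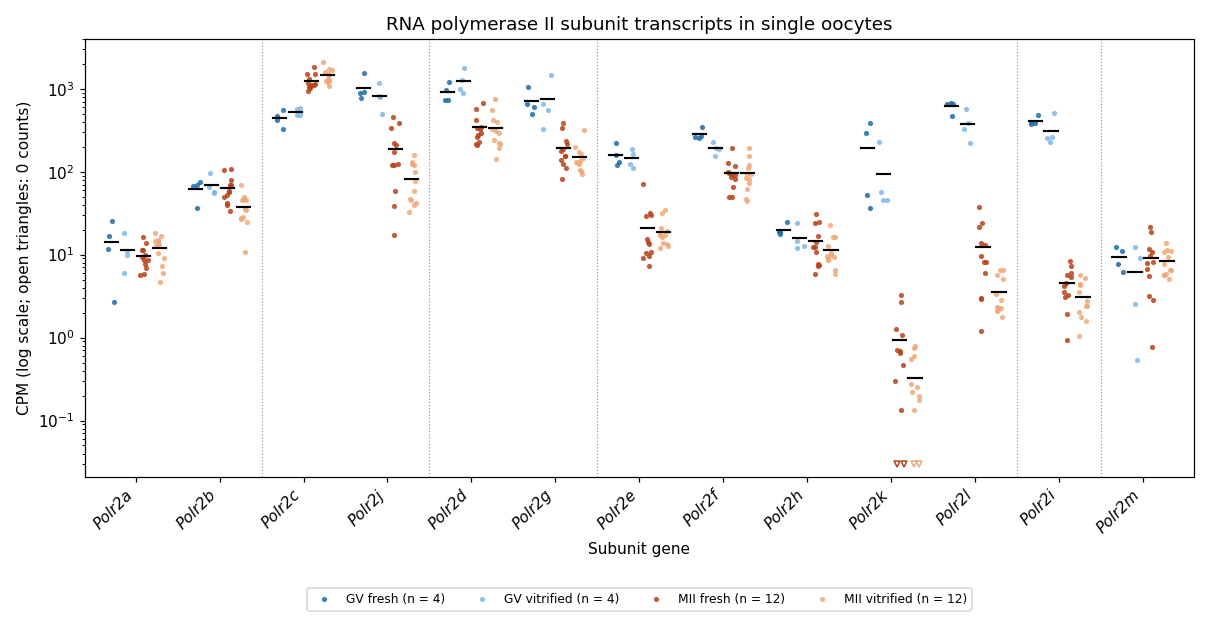
CPM (log axis) of the 13 polymerase II genes in each of the 32 oocytes, with the group mean as a black line and oocytes at 0 as open triangles at the bottom; dotted lines separate catalytic core, assembly pair, stalk, shared subunits, zinc-binding subunit and regulator. Polr2k, Polr2l and Polr2i are lower in every MII oocyte than in every GV oocyte, Polr2c is higher, and Polr2a, Polr2b, Polr2h and Polr2m overlap between stages in fresh oocytes.

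Since the library kit starts at the poly(A) tail, the annotated 3′ ends of the 3 genes that fell most in polymerase II and of the gene that rose are shown. Each is at most 30 bases of the 3′ UTR around the poly(A) signal, in the direction of the transcript, from GENCODE M21 on GRCm38, with the hexamer AATAAA or ATTAAA in capitals:
Polr2k: ccgtcacacagtgaagATTAAAagtgtttc
Polr2i: tccttcttccacctgtAATAAAtgccagtt
Polr2l: tgtacttacatatattaataAATAAAtctt
Polr2c: cttctgcacggtagtcAATAAAtaccagca
A second motif, the cytoplasmic polyadenylation element (CPE), is the site at which stored oocyte messenger RNAs can have their tails lengthened during maturation. It was searched as TTTTAT or TTTTAAT on the transcript strand in the last 100 bases, and 3 members that hold it are shown with the element in capitals, 1 that fell in both treatments, 1 called lower in vitrified oocytes and 1 that rose:
Polr2k: gtaTTTTAATactttgtataaa
Polr2b: ttgtgataagaaTTTTATttgttttgttta
Med15: gaaaattcccctTTTTATatgtgcactact
The Polr2k element lies 90 bases from the annotated transcript end, that of Polr2b 60 bases and that of Med15 61 bases. A CPE was found in 1 of the 10 members that rose in fresh oocytes, 4 of the 25 that fell and 6 of the 23 not called. Over the 11332 tested genes with one annotated match it was found in 30.9% of those that rose, 11.2% of those that fell and 20.1% of those not called, 19.9% in all. A match is only these letters in this window. The hexamer was found in the last 40 bases of 46 of the 58 members (79.3%): 6 of the 10 that rose, 23 of the 25 that fell and 17 of the 23 not called. Over all these genes the shares were 82.5%, 71.7% and 78.3%, and 77.3% in all.

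In RNA polymerase I the subunits that fell were the smaller ones. Polr1a, the largest subunit, was not called, at 19.4, 25.9, 8.201 and 16.9 CPM in fresh GV oocytes and from 4.81 to 53.9 with a median of 16.01 in fresh MII oocytes (0.28 ± 0.50 SE, edgeR adjusted p = 0.672). Polr1b, the second largest, was scarce throughout, at 5.63, 0.582, 0.461 and 5.28 CPM in fresh GV oocytes and at most 3.38 CPM in fresh MII oocytes, and was not called either (-0.79 ± 1.06 SE, edgeR adjusted p = 0.559). In vitrified oocytes the core genes gave -0.53 ± 0.48 SE and -1.65 ± 1.04 SE, with edgeR adjusted p of 0.364 and 0.18.

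Polr1d, which pairs with Polr1c in the assembly of both polymerase I and polymerase III, was the most abundant of the 5 per kilobase of merged exons in every group. It was at 345, 327, 420.3 and 366 CPM in fresh GV oocytes and 214, 335, 368 and 282 CPM in vitrified ones, and ran from 10.1 to 55.2 with a median of 22.2 CPM in fresh and from 7.29 to 32.1 with a median of 14.7 CPM in vitrified MII oocytes. The stages did not overlap, with log2 fold changes of -3.86 ± 0.33 SE and -4.31 ± 0.33 SE (edgeR adjusted p = 5.94e-12 and 4.93e-13). Its partner Polr1c fell by 1.53 on the log2 scale in fresh oocytes (SE 0.48, edgeR adjusted p = 0.00783), with values that overlapped between stages: 8.83, 20.04, 15.8 and 24.8 CPM in GV oocytes and from 1.65 to 15.3 with a median of 4.22 in MII oocytes. With MII library numbers of 20 and over alone, Polr1c was not called (-0.80, edgeR adjusted p = 0.253), and with those under 20 its value was -2.17. Polr1e, part of the heterodimer that serves initiation and elongation, went from 25.1, 19.0, 23.9 and 20.04 CPM to a range from 0 to 4.42 with a median of 2.12, 2 of 12 oocytes being at 0 (-3.53 ± 0.68 SE, edgeR adjusted p = 4.55e-05).

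RNA polymerase III fell in 5 of 10 members in fresh oocytes and 6 of 10 in vitrified ones, where 29.8% and 33.7% of all genes fell. Polr3a, the largest subunit, was called lower in both treatments. It was at 153, 190.0, 85.9 and 172 CPM in fresh GV oocytes and 105, 162, 207 and 166 CPM in vitrified ones, above every MII oocyte, which ran from 7.83 to 71.5 with a median of 33.1 CPM (fresh) and from 4.01 to 34.2 with a median of 12.7 CPM (vitrified). Log2 fold changes were -2.35 ± 0.41 SE and -3.35 ± 0.41 SE, with edgeR adjusted p of 1.03e-05 and 1.36e-08; whether the fall of Polr3a differs from that of Polr1a or Polr2a was not tested. Polr3b, the second largest subunit, was not called in fresh oocytes (-0.63 ± 0.40 SE, edgeR adjusted p = 0.198) and was close to the threshold in vitrified ones (-0.93 ± 0.40 SE, edgeR adjusted p = 0.0445).

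Polr3k, the zinc-binding subunit that acts in RNA cleavage and termination, was at 70.9, 200, 70.6 and 183 CPM in fresh GV oocytes and ran from 13.4 to 53.0 with a median of 25.01 in fresh MII oocytes (-2.24 ± 0.32 SE, edgeR adjusted p = 3.94e-07). In the trimer that opens the promoter, Polr3c fell by 2.06 (SE 0.54, edgeR adjusted p = 0.00179) while Polr3f was not called (-0.51 ± 0.32 SE, edgeR adjusted p = 0.194). The trimer's last place is taken by either Polr3g, known from pluripotent cells, or its paralog Polr3gl, known from most differentiated cells. Polr3gl was at 5.10, 1.41, 7.37 and 3.02 CPM in fresh GV oocytes and at most 0.77 CPM in fresh MII oocytes, 7 of which were at 0 (-4.93 ± 1.11 SE, edgeR adjusted p = 0.000304). Without MII fresh replicate 2 this value of Polr3gl was -5.68. The group totals of Polr3gl were 296 counts in fresh GV and 11 counts in fresh MII oocytes. Polr3g was at 4.58, 4.32, 4.42 and 0.539 CPM in fresh GV oocytes and from 0.268 to 4.54 with a median of 1.68 in fresh MII oocytes and was not called (-0.80 ± 0.65 SE, edgeR adjusted p = 0.319). The heterodimer of Polr3d and Polr3e, which serves termination and reinitiation, was not called in either treatment, with log2 fold changes in fresh oocytes of -0.073 ± 0.39 SE and -2.08 ± 0.91 SE.

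**Figure D2:**
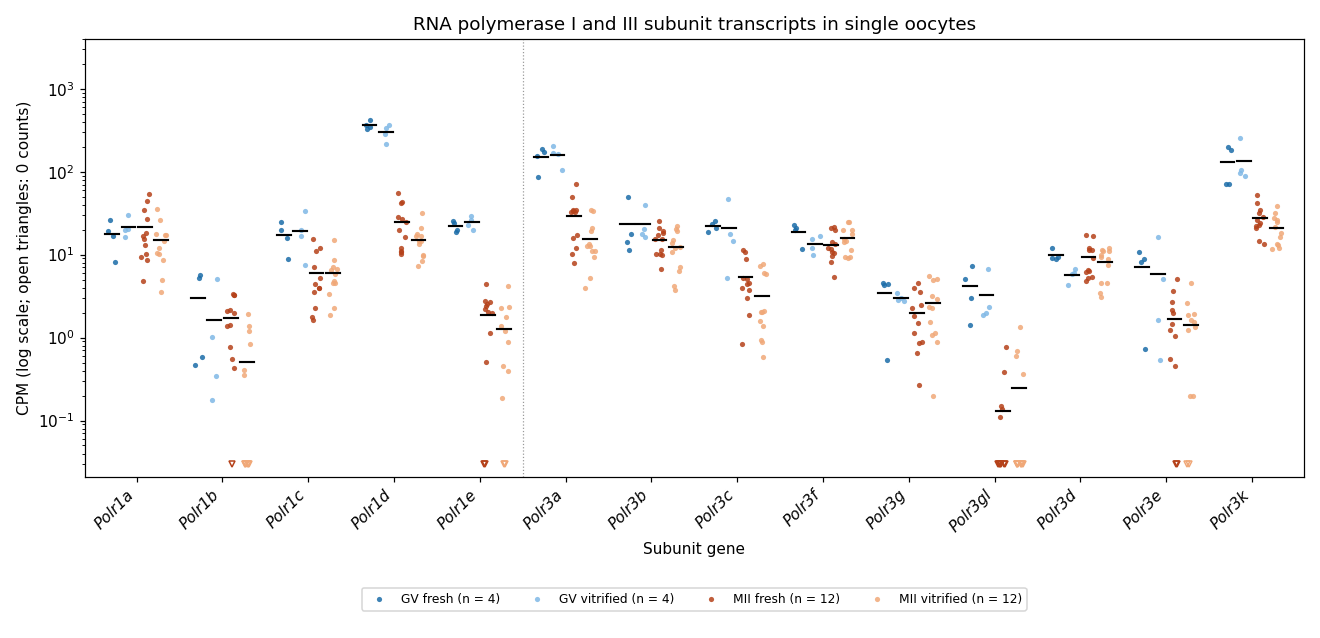
CPM (log axis) of polymerase I and polymerase III genes in each of the 32 oocytes, with the group mean as a black line and oocytes at 0 as open triangles; the dotted line separates the enzymes. Polr1d, Polr1e and Polr3a are lower in every MII oocyte than in every GV oocyte, and Polr1a, Polr1b, Polr3d, Polr3f and Polr3g overlap between stages.

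In Mediator, 9 of 30 members rose and 9 fell in fresh oocytes. The head, the middle and the animal subunits between head and tail each held members that rose and members that fell. The tail held none that fell, the kinase module none that rose, and the scaffold was not called. The head contacts RNA polymerase II, and 3 of its 7 measured members rose in fresh oocytes while 2 fell, where 22.8% of all genes rose and 29.8% fell. Med20, which forms the movable jaw of the head with Med18, rose most in the head. It was at 54.3, 53.6, 42.6 and 86.8 CPM in fresh GV oocytes and 61.3, 22.9, 62.6 and 69.1 CPM in vitrified ones, below every MII oocyte, which ran from 116 to 285 with a median of 212 CPM (fresh) and from 196 to 367 with a median of 266 CPM (vitrified). The log2 fold changes were 1.78 ± 0.26 SE and 2.33 ± 0.27 SE (edgeR adjusted p = 4.22e-07 and 3.68e-09). Med20 (chr17:47611582-47624418, plus strand) shares exon bases with the gene model Gm20517 on the same strand, and the authors' counting could divide reads between them. It also shares exon bases with the processed pseudogene Kpna2-ps on the opposite strand, 2082 bases with both. Reads of Kpna2-ps and Med20 cannot be told apart there without strand, and their part in the rise was not tested. Med18 and Med22 rose by 1.19 and 1.09 on the log2 scale in fresh oocytes (edgeR adjusted p = 0.0151 and 0.000973).

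The same module held a large fall. Med8, which carries the part of the head that binds Med18 and Med20, was at 91.2, 66.8, 175 and 116 CPM in fresh GV oocytes and 246, 96.0, 119.5 and 129.9 CPM in vitrified ones, and ran from 0.988 to 39.9 with a median of 6.05 CPM in fresh and from 1.51 to 9.58 with a median of 6.81 CPM in vitrified MII oocytes. The highest fresh value of Med8 is again that of MII fresh replicate 11, and the next was 14.5 CPM. It fell by 3.58 on the log2 scale (SE 0.50, edgeR adjusted p = 1.83e-07) in fresh oocytes and by 4.68 (SE 0.51, edgeR adjusted p = 9.26e-10) in vitrified ones. Med17, the central subunit of the head, fell by 1.58 (SE 0.34, edgeR adjusted p = 0.000206) in fresh oocytes. Med11 and Med6 were not called in fresh oocytes, at 0.44 ± 0.23 SE and -0.25 ± 0.33 SE.

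The middle module connects head and tail, and 4 of its 9 members fell in fresh oocytes while Med1 rose. Over all genes 29.8% fell and 22.8% rose there. Med7, whose hinge with Med21 lies at the centre of the module, was at 191, 92.9, 470.3 and 111 CPM in fresh GV oocytes and 719, 224, 75.8 and 141 CPM in vitrified ones, with GV fresh replicate 3 and GV vitrified replicate 1 the highest. MII oocytes ran from 10.8 to 41.0 with a median of 25.2 CPM (fresh) and from 7.68 to 21.8 with a median of 14.3 CPM (vitrified), all below every GV oocyte. Its log2 fold changes were -3.04 ± 0.38 SE and -4.31 ± 0.38 SE (edgeR adjusted p = 2.33e-08 and 1.11e-11). Without GV fresh replicate 3 the fresh value of Med7 was -2.30, and without GV vitrified replicate 1 the vitrified value was -3.30, both still called. Med9 fell by 2.952 and Med19 fell by 1.29 in fresh oocytes (edgeR adjusted p = 1e-09 and 0.00026), and Med26, which links Mediator to elongation factors, fell by 2.38 (SE 0.42, edgeR adjusted p = 1.28e-05). Med1, the subunit that nuclear receptors bind, went from 45.04, 29.4, 23.7 and 40.6 CPM in fresh GV oocytes to a range from 49.8 to 120.1 with a median of 73.7 in fresh MII oocytes (1.11 ± 0.25 SE, edgeR adjusted p = 0.000356). Med4, Med10, Med21 and Med31 were not called, with log2 fold changes from -0.59 to 0.57 in fresh oocytes.

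Med14, the scaffold, was not called, at 52.7, 60.6, 29.3 and 45.9 CPM in fresh GV oocytes and from 27.6 to 82.6 with a median of 61.2 in fresh MII oocytes (0.30 ± 0.29 SE, edgeR adjusted p = 0.401). The tail is the module that many activators bind, and 3 of its 5 members rose and none fell in either treatment. Over all genes, 22.8% rose and 29.8% fell in fresh oocytes, and 23.3% and 33.7% in vitrified ones. Med15, bound by the activators of lipid synthesis genes, was at 107, 159, 47.8 and 133 CPM in fresh GV oocytes and 64.9, 103, 145 and 137 CPM in vitrified ones, and ran from 137 to 502 with a median of 358 CPM in fresh and from 186 to 574 with a median of 409 CPM in vitrified MII oocytes. In fresh oocytes GV replicate 2 was above the lowest MII oocyte, and in vitrified oocytes the stages did not overlap. Its log2 fold changes were 1.62 ± 0.34 SE and 1.81 ± 0.35 SE (edgeR adjusted p = 0.000154 and 3.56e-05). Med25, a further target of activators, had the largest rise of all members in fresh oocytes, from 10.2, 17.96, 4.42 and 16.9 CPM in GV oocytes to a range from 10.4 to 94.5 with a median of 50.2 in MII oocytes, with some overlap (2.01 ± 0.59 SE, edgeR adjusted p = 0.00436). Med23 rose by 0.88 on the log2 scale (edgeR adjusted p = 0.0249), and Med24 and Med16 were not called. Med16 was near the limit of counting, with 5 of 12 fresh MII oocytes at 0.

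The 4 subunits between head and tail that are known from animals and not from yeast divided evenly and were all called in both treatments. Of all genes, 52.6% were called in fresh oocytes and 57% in vitrified ones. Med29 had the largest fall in Mediator. It was at 85.9, 114, 142 and 134 CPM in fresh GV oocytes and 85.5, 112, 148 and 75.7 CPM in vitrified ones, and ran from 0 to 11.1 with a median of 0.137 CPM in fresh MII oocytes and from 0 to 2.54 with a median of 0.287 CPM in vitrified MII oocytes, with 5 and 4 oocytes at 0. The highest fresh value is that of MII fresh replicate 11, the oocyte with the most granulosa and cumulus transcripts, and the next was 2.04 CPM. Its log2 fold changes were -6.57 ± 0.87 SE and -7.26 ± 0.91 SE (edgeR adjusted p = 8.57e-08 and 2.23e-08). Without MII fresh replicate 11 the fresh value of Med29 was -8.19. Med28, the most abundant Mediator subunit per kilobase of merged exons in GV oocytes, fell by 2.15 in fresh oocytes (SE 0.26, edgeR adjusted p = 1.15e-08). Med27 and Med30 rose by 1.17 and 0.99 (edgeR adjusted p = 0.000257 and 0.00146), and Med30 was the most abundant per kilobase of merged exons in MII oocytes of both treatments. Both ranks depend on exons merged over all annotated transcripts, 4491 bases for Med10 against 913 in 1 representative transcript. With the length of 1 representative transcript per gene both ranks change. Med10 and Med21 (572 bases) then stand above Med28 (4560 bases) in GV oocytes of both treatments. Med27 (1254 bases) then stands above Med30 (1007 bases) in MII oocytes of both treatments.

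In the kinase module, which binds reversibly and holds Mediator away from the polymerase, Med13l fell and Med12, Med12l and Med13 were not called in fresh oocytes. Med13l was at 41.4, 79.6, 19.5 and 66.8 CPM in fresh GV oocytes and ran from 12.7 to 42.7 with a median of 22.9 in fresh MII oocytes (-1.06 ± 0.38 SE, edgeR adjusted p = 0.0175). Leaving out GV fresh replicate 2 or 4 ended this call, with log2 fold changes of -0.78 and -0.92 and edgeR adjusted p of 0.13 and 0.0739. In vitrified oocytes Med13l was called lower (-1.27 ± 0.37 SE, edgeR adjusted p = 0.00421), a call that leaving out GV vitrified replicate 3 ended (-0.86, edgeR adjusted p = 0.0821). Med12 was at 7.21, 5.82, 2.67 and 11.4 CPM in fresh GV oocytes and from 0.768 to 10.2 with a median of 4.36 in fresh MII oocytes, and Med12l at 2.35, 1.04, 2.76 and 1.94 CPM and from 1.65 to 6.93 with a median of 3.65.

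**Figure D3:**
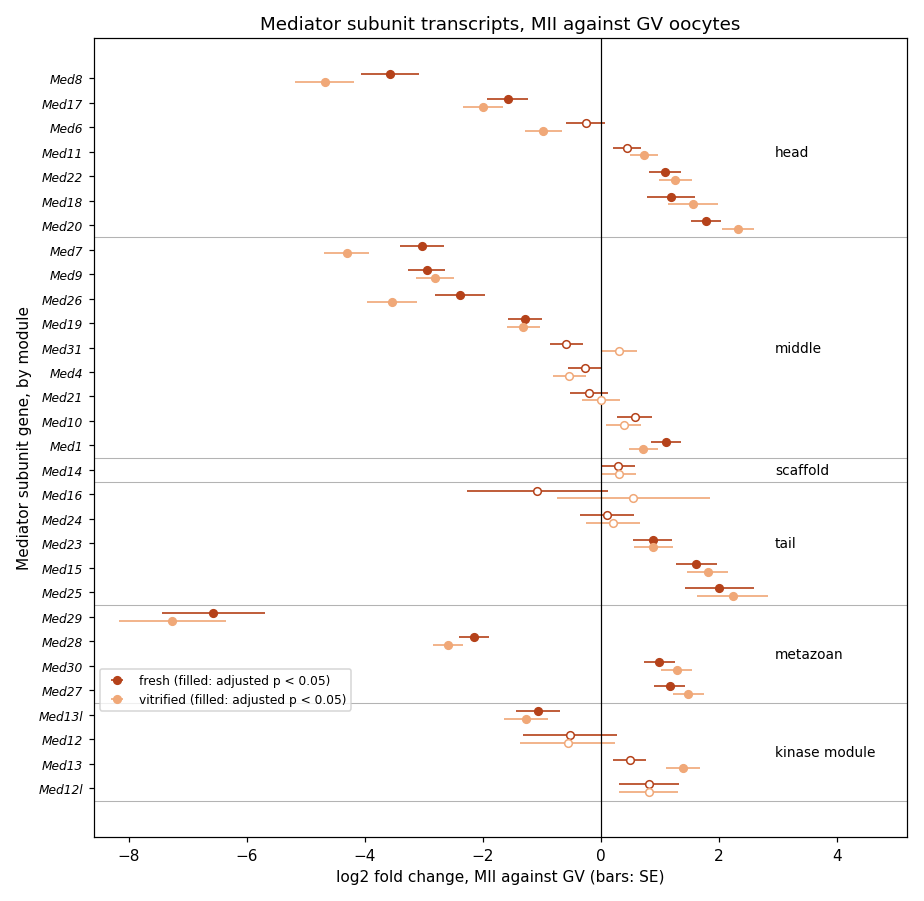
Log2 fold change of the 30 Mediator genes, MII against GV, in fresh (dark) and vitrified (light) oocytes, by module, with bars of 1 SE and filled points where the edgeR adjusted p was under 0.05; "metazoan" marks the 4 subunits between head and tail. Head, middle and metazoan subunits lie on both sides of 0, the called tail subunits are all above 0, and Med29 is the lowest at -6.57 and -7.26.

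Paralogous subunits exclude each other within a complex, so the log2 ratio of their CPM + 1 was taken per oocyte and compared by two-sided permutation tests, exact where a GV group takes part, adjusted over 16 tests (3 pairs of members and the kinases Cdk8 and Cdk19, in 4 comparisons). Med13 over Med13l was from -2.02 to 0.33 in the 4 vitrified GV oocytes and from 0.49 to 2.87 in the 12 vitrified MII oocytes, so the stages did not overlap. The difference of means was 2.40 (exact permutation p = 0.0011, the smallest this design can give; adjusted p = 0.0176). Leaving out any 1 of the 4 vitrified GV oocytes gave differences of 2.06 to 2.84 and an exact permutation adjusted p of 0.0645 each time. With 3 against 12 oocytes the smallest exact p is 0.0044, which gives 0.0703 over 16 tests if only 1 ratio reaches it. This ratio could then pass the threshold only if others also had small p-values, so the loss of the call does not settle stability. The value of 0.0645 also depends on the p-values of the other ratios, since the adjustment runs over all 16 tests.

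In fresh oocytes Med13 over Med13l moved the same way by 1.58 without passing the adjustment (exact permutation p = 0.0121, adjusted p = 0.0645), the GV values running from -2.39 to 0.49 and the MII values from -0.064 to 2.10. Polr3g over Polr3gl differed by 1.54 in fresh oocytes (exact permutation p = 0.00879, adjusted p = 0.0645) and 1.35 in vitrified oocytes (exact permutation p = 0.0286, adjusted p = 0.114). Med12 over Med12l had lower means in MII oocytes, by -1.15 and -1.45, with exact permutation adjusted p of 0.162 and 0.173. For Polr3g and Polr3gl, and in part for Med12 and Med12l, levels of a few CPM make the ratio depend on the added 1.

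**Figure D4:**
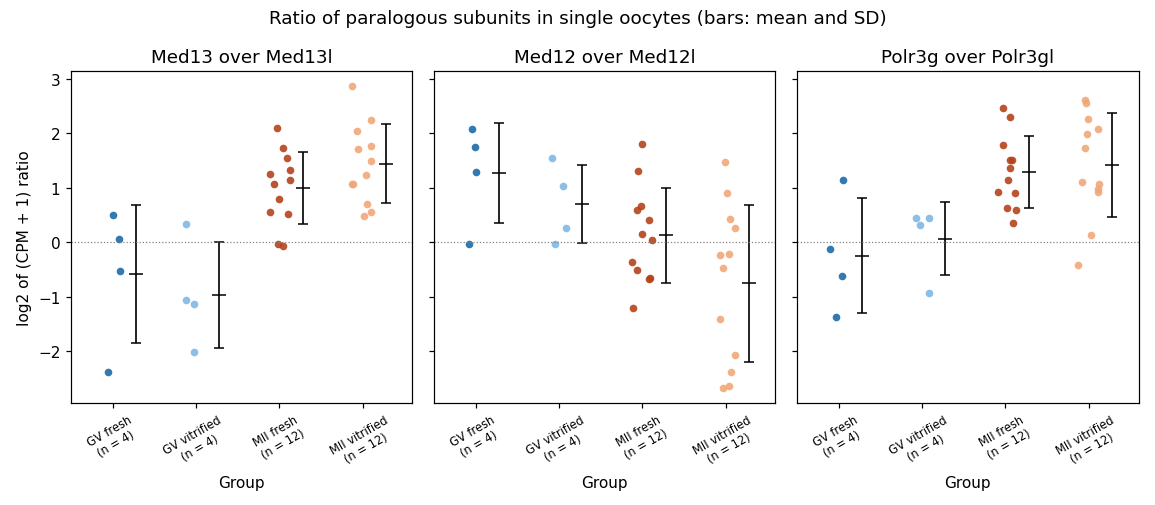
Log2 ratio of CPM + 1 of 3 pairs of paralogous subunits in each oocyte, by group, with the group mean and SD in black. Med13 over Med13l is above 0 in all 12 vitrified MII oocytes and in 1 of 4 vitrified GV oocytes.

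Vitrified and fresh oocytes of the same stage were then compared. In GV oocytes, 0 of the 58 members were called, where 0% of all 10831 genes were, and 1 had an unadjusted p under 0.05 in edgeR (1.66% of all genes, 0.656% higher and 1.01% lower); DESeq2 and limma-voom also called 0 members. That member was Polr2l, lower in vitrified oocytes at -0.70 ± 0.32 SE (unadjusted edgeR p = 0.0469, adjusted p = 1), with overlapping values: 661, 666, 654 and 471 CPM in fresh and 220.4, 325, 564 and 389 CPM in vitrified oocytes. With 4 oocytes a group the intervals were wide. For Polr2a, log2 fold change -0.32, the 95% interval (normal approximation from the SE) was -1.51 to 0.88, for Polr1a (0.31) -0.55 to 1.16, for Polr3a (0.10) -0.53 to 0.74 and for Med14 (0.087) -0.58 to 0.75. The lack of a call does not show equal levels.

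In MII oocytes, with 12 a group, 53 members passed the filter on low counts and 0 were called, where 0% of all 8428 genes were. Med16, Med29, Polr1b, Polr2k and Polr3gl did not pass it. At an unadjusted p under 0.05, edgeR gave 9 members of 53, 2 higher and 7 lower in vitrified oocytes, against 12.5% of all genes, 5.93% higher and 6.56% lower. limma-voom called 0 members. DESeq2 called 1, Polr2l, and over all genes called 20 higher and 32 lower. Polr2l ran from 1.21 to 37.5 with a median of 8.93 CPM in fresh and from 1.75 to 6.58 with a median of 2.59 CPM in vitrified MII oocytes, overlapping at the low end of the fresh range. Its log2 fold change was -1.77 ± 0.43 SE, with a 95% interval of -2.61 to -0.93 and an edgeR adjusted p of 0.19. Within MII library numbers under 20 the value was -2.09 (edgeR adjusted p = 0.112) and within those of 20 and over -1.16 (edgeR adjusted p = 0.876).

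The other 6 members lower at an unadjusted p under 0.05 were Med7 (-0.85), Polr2b (-0.77), Polr2j (-1.20), Polr3a (-0.90), Polr1d (-0.72) and Med6 (-0.49), with edgeR adjusted p from 0.197 to 0.391. Med20 (0.42) and Med22 (0.32) were the 2 higher members, with edgeR adjusted p of 0.255 and 0.346. For the largest subunits the 95% interval of the log2 fold change was -1.22 to 0.20 for Polr1a (estimate -0.51), -0.15 to 0.79 for Polr2a (estimate 0.32) and -1.58 to -0.22 for Polr3a (estimate -0.90).

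**Figure D5:**
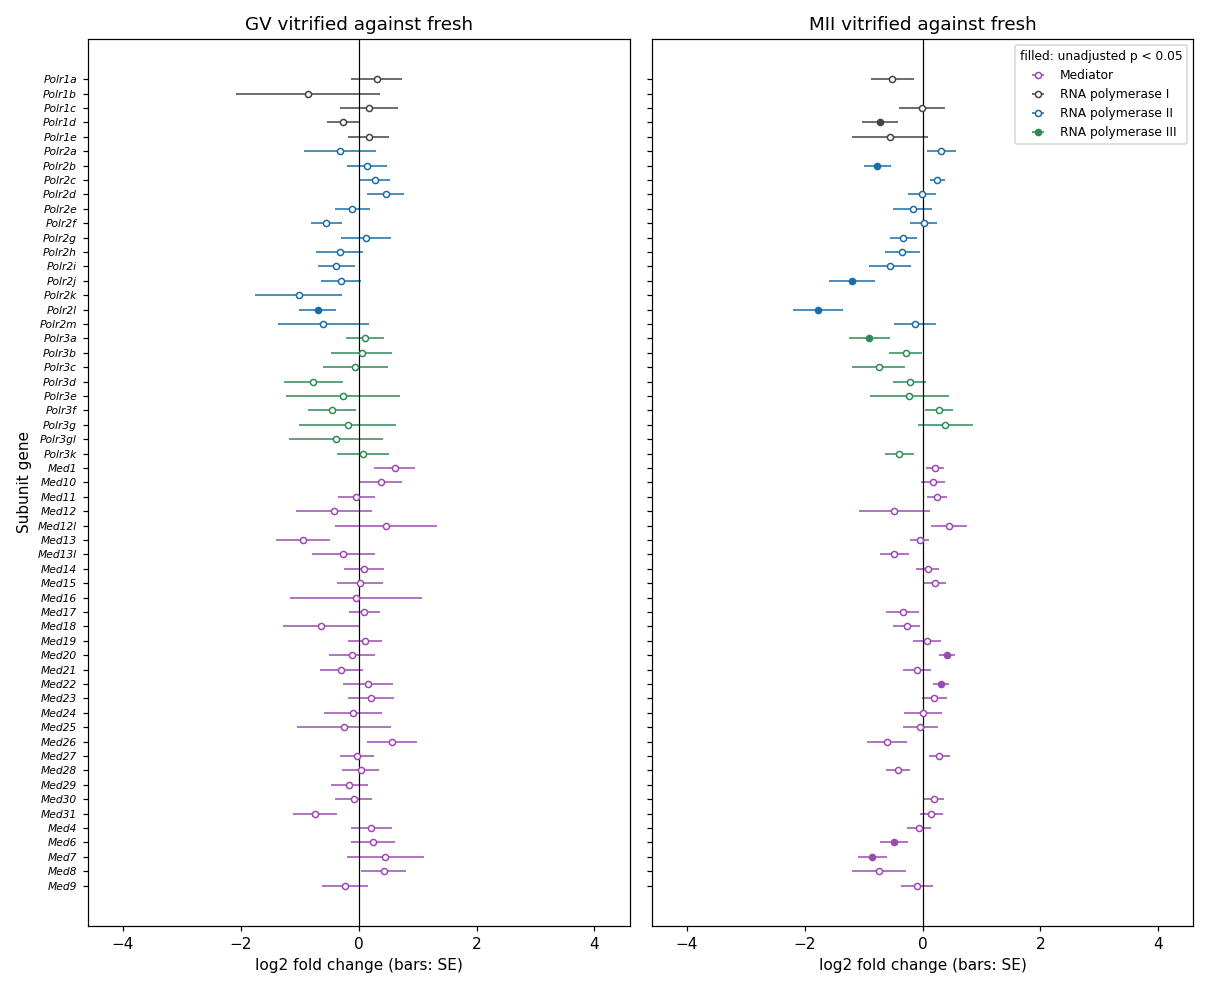
Log2 fold change of the members named on the axis in vitrified against fresh oocytes, in GV oocytes (left) and MII oocytes (right; members without a point were not tested), with bars of 1 SE and filled points where the unadjusted edgeR p was under 0.05. No point passed the adjusted threshold, and Polr2l is filled in both panels, at -0.70 and -1.77.

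The change from GV to MII was tested for a difference between treatments by the interaction term of the fit over all 32 oocytes. It called 0 of the 58 members (0% of all 11470 genes), with 3 at an unadjusted p under 0.05 in edgeR (4.07% of all genes, 1.95% positive and 2.12% negative), and DESeq2 and limma-voom called 0 members, while DESeq2 called 7 positive and 1 negative over all genes. The 3 were Med13 (0.90 ± 0.38 SE), Med31 (0.90 ± 0.41 SE) and Med7 (-1.27 ± 0.59 SE), all with an edgeR adjusted p of 1. The value of Med7 was -0.26 without GV vitrified replicate 1 and -2.02 without GV fresh replicate 3. There were 5 members called in vitrified oocytes and not in fresh ones: Med11 (0.73 ± 0.24 SE) and Med13 (1.39 ± 0.29 SE) higher, and Med6 (-0.97 ± 0.32 SE), Polr2b (-0.87 ± 0.31 SE) and Polr3b (-0.93 ± 0.40 SE) lower. Their fresh log2 fold changes were 0.44, 0.49, -0.25, 0.033 and -0.63, and none of the 5 differences was called. Leaving out GV vitrified replicate 1 ended the calls of Med6 (-0.61, edgeR adjusted p = 0.132), Polr2b (-0.64, edgeR adjusted p = 0.121) and Polr3b (-0.53, edgeR adjusted p = 0.327).

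Other genes of the same pathways were counted from lists made with the members. Each count stands beside 22.8% higher and 29.8% lower over all genes in fresh oocytes, and 23.3% and 33.7% in vitrified ones. Of the cofactors of polymerase I, 4 of 5 tested fell and none rose in fresh oocytes, among them Rrn3 (-0.92), which brings the enzyme to the ribosomal promoter, and Taf1d (-2.44), part of its selectivity factor, with Ubtf not called (-0.92, edgeR adjusted p = 0.237). In vitrified oocytes 3 of 5 fell. Crcp, a polymerase III subunit, fell by 3.99 (SE 0.71, edgeR adjusted p = 1.29e-05). Of 16 factors that serve polymerase III, 5 rose and 5 fell in fresh oocytes. Their median log2 fold change was -0.49, with a range from -6.20 to 2.55. Brf1, which places the enzyme at transfer RNA genes, fell by 4.04 (edgeR adjusted p = 5.32e-07). Maf1, a repressor of polymerase III, rose by 1.90 (edgeR adjusted p = 0.00814). Neither has the largest change of this list, its other called genes are not given here, and no direction is given for it.

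Among 36 tested general transcription factors of polymerase II, 15 rose and 8 fell in fresh oocytes, where 22.8% of all genes rose and 29.8% fell. Their median log2 fold change was 0.65, beside -1.57 for the 13 subunits of the enzyme and -0.23 for all genes. Members of 1 factor again moved apart: in TFIIH, Gtf2h3 rose by 3.81 and Gtf2h5 fell by 4.57, and in TFIIE, Gtf2e1 rose by 1.99 and Gtf2e2 fell by 0.86. Tbpl2, the oocyte relative of the TATA-binding protein, rose by 1.02 (edgeR adjusted p = 0.0214). Of 31 genes of pause release and elongation, 9 rose and 8 fell, beside the same shares of all genes. Cdk9 and its cyclins Ccnt1 and Ccnt2, the kinase that releases paused polymerase, rose by 1.497, 2.50 and 2.36, whereas Nelfe, a subunit of the pausing factor NELF, fell by 5.75 and Supt4a, the small subunit of DSIF, had a log2 fold change of -4.95 (lower). Nelfa, Nelfb, Nelfcd and Supt5 of the same list are not given here, and the median over its 31 genes was -0.041. Of the kinase module's partners, Ccnc fell (-1.13 ± 0.34 SE, edgeR adjusted p = 0.0056) and Cdk8 (0.41 ± 0.22 SE) and Cdk19 (-0.73 ± 1.13 SE) were not called. Of 15 genes of polymerase assembly and of phosphatases of the carboxy-terminal domain, 2 rose and 3 fell, with Gpn1, which acts in nuclear import of polymerase II, falling by 4.58 (edgeR adjusted p = 1.82e-08).

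Members with short coding sequences tended to have the lower log2 fold changes in polymerases I and II. Spearman's rho between coding length and the log2 fold change in fresh oocytes was 0.9 across the 5 polymerase I genes, 0.78 across the 13 polymerase II genes, across the 30 Mediator genes 0.14, across the 10 polymerase III genes 0.091, and across all 11332 genes 0.20. These are descriptions across genes, which share the same libraries and are not independent replicates. The 25 members that fell had a median coding length of 612 bases, the 10 that rose 879 bases and the 23 not called 2130 bases, while over all genes the medians were 1077, 1539 and 1560 bases.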

How the data were processed

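RNA of 32 single mouse oocytes (4 GV fresh, 4 GV vitrified, 12 MII fresh, 12 MII vitrified) was amplified with an oligo(dT)-primed, unstranded kit and sequenced. Per the submitters' processing notes, HISAT2, featureCounts and the mm10 build were used; no versions are named. The authors deposited raw counts per gene for GV oocytes, all whole. For MII oocytes the deposited values are estimated counts, 11.7 to 19.7% of them not whole in each oocyte; this unit was read from the values, and they were rounded here. Of 13202 rows, 27 exact repeats were removed. No gene sums to under 10 across MII libraries, whereas 376 genes are at 0 in all GV oocytes.

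Counts were scaled by TMM and tested in edgeR 4.0.16 (R 4.3.3, quasi-likelihood F test) after a filter on low counts (minimum count 10, minimum total 15), with Benjamini-Hochberg adjustment. The GV comparison used 8 oocytes, the MII comparison 24, and the stage comparisons and interaction came from 1 fit of 32. Alternatives were DESeq2 1.42.0, limma-voom 3.58.1, other filters and scalings, a replicate block, library number series, and leaving out oocytes; omission of the 2 GV oocytes that stood apart, and the block's oocytes fitted without it, were chosen after seeing the data. The edgeR fit was tested on simulated data. Annotation came from GENCODE M21; 58 of 58 members matched, and 26 share exon bases with another gene.

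Members and lists were chosen with earlier results of these data known. Members named with values were the largest polymerase subunits, paralogs and Med1 and Med14 by name, the 3 largest called rises and falls per complex and stage comparison, the 2 smallest p per complex and treatment comparison or interaction, and members whose stage calls differed. Other members named were chosen after their values were seen. A member that enters the counts is not reported here by itself, and is left out of the plots.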

Additional observations from a re-analysis of the deposited data

Results flagged for a closer look

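In 70 groups of 4 GV oocytes, 35 named members in each treatment, 12 held an oocyte whose gap to its nearest neighbour took up most of the group's range (Dixon's criterion at 95%). Chance flags about 1 in 20 such groups. None of the values below was weighed against an explanation.

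The oocytes with the lowest TMM factors of their groups gave 4 of these values, all high. GV fresh replicate 3 had Med6 at 408 CPM, where the others had 176 to 205 CPM, and Polr2f at 349.8 CPM against 257 to 266 CPM. GV vitrified replicate 1 had Polr2k at 226 CPM against 45.4 to 57.7 CPM, and Polr3b at 39.9 CPM against 16.2 to 20.2 CPM.

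GV fresh replicate 4 was low for Polr2l, at 471 CPM against 654 to 666 CPM, and for Polr3g, at 0.54 CPM against 4.32 to 4.58 CPM. GV vitrified replicate 2 was low for Med12, at 2.47 CPM against 5.58 to 6.08 CPM, and for Med20, at 22.95 CPM against 61.3 to 69.1 CPM, and high for Med31, at 228 CPM against 125 to 138 CPM. GV vitrified replicate 3 was high for Polr2i, at 506 CPM against 229 to 263 CPM. GV vitrified replicate 4 was high for Polr3gl, at 6.69 CPM against 1.86 to 2.33 CPM, and for Polr3k, at 253.5 CPM against 88.7 to 104 CPM.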

How the results depend on the processing

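Stage counts of members called (higher and lower) stayed within 1.5 times the reported ones under every alternative run. Leaving out 1 oocyte at a time gave 9 to 10 higher and 24 to 26 lower in fresh oocytes and 10 to 13 and 26 to 29 in vitrified ones, and 0 to 0 for the treatment comparisons and the interaction. For the stage comparisons each of the 32 oocytes was left out in turn. Those of the other treatment enter a stage comparison only through the shared fit, so leaving them out could change little. In MII oocytes DESeq2 called 1 member as different between treatments. The number of paralog ratios past the threshold, 1 as reported, was 2 with a pseudocount of 0.1 (the cause was not tested), and 0 and 0 within MII library numbers under 20 and of 20 and over. With 4 against 7 and 4 against 5 oocytes the smallest exact permutation p is 0.00606 and 0.0159, which gives 0.097 and 0.254 over 16 tests if only 1 ratio reaches it. In these 2 settings a ratio could pass the threshold only if others also had small p-values, so they do not settle stability. With the replicate block, 9 higher and 24 lower were called in fresh oocytes and 12 and 23 in vitrified ones, against 10 and 24, and 12 and 27, in the same oocytes without it, and 0 in the treatment comparisons and the interaction. Replicate numbers did not pair the oocytes: deviations of same-numbered oocytes correlated between -0.38 and 0.19 for GV fresh and vitrified and between -0.33 and 0.28 for MII. Over the named members' values, 6344 stayed on their side of the threshold, 34 lost and 15 gained a call. These counts, and those of changed signs, include the fits that left out oocytes of the other treatment. None of 2023 alternative values of called results changed sign, whereas 216 of 4370 of results without a call did. Beside the single oocytes named with Med13l, Med6, Polr2b and Polr3b above, without GV fresh replicate 3 Med11 was called in fresh oocytes (0.63, edgeR adjusted p = 0.035), and without GV vitrified replicate 4 the call of Med1 in vitrified oocytes ended (0.62, edgeR adjusted p = 0.0584). Med13 was called in fresh oocytes without GV fresh replicate 2 (0.80, edgeR adjusted p = 0.0305), and Med31 without GV fresh replicate 4 (-0.79, edgeR adjusted p = 0.0283) or MII fresh replicate 2 (-0.69, edgeR adjusted p = 0.0375). The call of Polr3b in vitrified oocytes also ended without GV vitrified replicate 4, MII fresh replicate 4 or 10, or MII vitrified replicate 1, 5, 6 or 7, with edgeR adjusted p from 0.0501 to 0.0581. With MII library numbers under 20 alone the fresh call of Med13l ended (-0.77, edgeR adjusted p = 0.0965). With those of 20 and over, the vitrified calls of Med1, Med11, Med13l, Polr2b and Polr3b ended, with edgeR adjusted p from 0.0812 to 0.489. Genes of a few CPM (Polr1b, Polr3g, Polr3gl, Med12l, Med16) are limited by depth.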
